A study of Mus musculus with 4 samples.

Results

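The Rab genes were described in epithelial cells of the mouse stomach corpus that had been sorted into 2 fractions. Members were all rows of the deposited expression table whose symbol is Rab followed by a number and at most one letter from a to d, which took 59 of 55335 rows. All 59 match 1 protein-coding gene each in the GENCODE vM21 annotation of GRCm38. The rule used the names alone and no measured value. A mean of at least 1 CPM over the libraries (CPM, counts per 1000000 reads assigned to genes) was reached by 49 members, and these 49 were tested among the 13019 genes of that level.

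All 4 libraries came from C57BL/6 mice aged 6 to 8 weeks that carried the Iqgap3-2A-tdTomato allele, so that cells using the Iqgap3 locus also make tdTomato, a red fluorescent protein. Living cells with the epithelial surface protein EpCAM were sorted from the corpus by tdTomato, the bright ones as IQ3pos and the dim or dark ones as IQ3neg, with no further treatment, and bulk RNA was read by SMART-Seq2. IQ3pos_1909A and IQ3neg_1909B each pool 3 mice, and IQ3pos_1910A and IQ3neg_1910B each pool 4. The values of a fraction are given for its 3-mouse library first and its 4-mouse library second. With pools, the spread between libraries of a fraction is all the error there is, and part of it may be technical.

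Rab proteins are small GTPases that mark membranes. Loaded with GTP, each recruits effectors (motors, tethers, fusion factors) to its own compartment, so that the family as a whole sorts vesicles between the endoplasmic reticulum (ER), Golgi, endosomes, lysosomes and the cell surface. In the stomach, Rab3d and Rab26 are known from the zymogen granules of enzyme-secreting chief cells, and Rab11a and Rab25 from the tubulovesicles that carry the proton pump of acid-secreting parietal cells. Rab3a, Rab3b and Rab3c are known from the granules and synaptic vesicles of neuroendocrine cells and neurons.

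Libraries held between 90714929 and 418401262 reads in genes, and 3 reads, taken as the detection floor, were worth between 0.00717 and 0.0331 CPM. Chief cell markers summed to 51054 and 19686 CPM in IQ3pos and to 415831 and 404469 CPM in IQ3neg (8 of 9 listed genes in the table, none at 0). As CPM are shares of a library, the median of all tested genes was 0.68 higher in IQ3pos on the log2(CPM + 1) scale, and 0.04 higher after TMM scaling, which sets libraries by their typical gene. Differences of members are therefore also given relative to that median. Iqgap3 itself stood at 0.22 and 9.32 CPM in IQ3pos and at 0.0435 and 0.452 in IQ3neg, so that the fractions overlapped in the gene itself (limma adjusted p = 0.493). Markers of the sort (Epcam, Cdh1, Krt8, Krt18) summed to 3165 and 4408 CPM against 1212 and 2731, and those of dividing cells to 989 and 2366 against 85.9 and 177. Immune markers summed to 234 and 44.0 CPM against 342 and 69.0, with Itgam at 0 in IQ3pos_1909A and Cd3e and Cd79a at 0 in IQ3neg_1910B. Stromal and endothelial markers reached at most 14.0 CPM, erythrocyte markers at most 10.1. Pit cell markers summed to 9538 and 9754 CPM against 1015 and 1364, and mucous neck ones to 4616 and 5901 against 678 and 1152, with Cftr at 0 in every library but IQ3pos_1910A. Tuft cell markers summed to 479 and 113 CPM against 326 and 929, and pancreatic acinar ones to 83.1 and 184 against 598 and 714.

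Summed over all members, Rab transcripts took 3188 and 3971 CPM in IQ3pos and 1708 and 2354 CPM in IQ3neg, that is 0.319% and 0.397% of reads against 0.171% and 0.235%. Both IQ3pos libraries were above both IQ3neg libraries in this sum, by 1.76-fold between the means. On TMM-scaled CPM the sums were 2532 and 2938 against 2485 and 2754, so that the fractions overlapped and the means differed 1.04-fold. Fewer members were present at 1 CPM or more in IQ3pos, 39 and 41, than in IQ3neg, 49 and 50. All genes at that level were not counted per library, so this cannot be called particular to Rab genes. Above 0 CPM, a lower limit, the whole table had 29724 and 30017 rows in IQ3pos and 21757 and 21823 in IQ3neg. Per kilobase of exon, Rab7, the Rab of late endosomes and lysosomes, was the highest member, with a mean of 113 CPM per kb over all libraries. It was followed by Rab1a (ER to Golgi) at 77.0, Rab27a (granule docking) at 66.7, Rab11a (recycling endosomes) at 64.4, Rab2a (ER to Golgi) at 63.5 and Rab8a (transport to the surface) at 46.2 CPM per kb. Rab25 and Rab27b came next, at 34.4 and 30.5. The neighbours Rab27a, Rab11a and Rab2a lay closer together than the libraries of a fraction did, with SDs of 16.7 (Rab11a) and 44.0 (Rab2a) CPM per kb in IQ3pos.

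No member passed the test of IQ3pos against IQ3neg, in either direction (limma on log2(CPM + 1), Benjamini-Hochberg adjustment over 13019 genes, threshold 0.05). The same test called 0% of all genes, and its smallest adjusted p for any gene was 0.0542. At an unadjusted p under 0.05, 7 members were higher in IQ3pos and 4 lower, where 18.2% and 4.98% of all genes were. Limma on TMM-scaled CPM called no member, against 0.0461% of all genes higher and 0.184% lower, and edgeR on whole reads recovered from the CPM called none of the 53 members it tested, against 0.0535% and 0.214%. With a mean of at least 5 CPM limma called Rab27b higher (adjusted p = 0.0443) and Rab3c lower (adjusted p = 0.0307), where it called 7.83% and 1.06% of all genes of that level. With a block for the library number limma called 4 members higher and 1 lower, against 9.34% and 0.960% of all genes. No label says that same-numbered libraries share mice. DESeq2 on the recovered reads also made calls. Of the 56 members that it gave an adjusted p, it called Rab3c, Rab26, Rab34, Rab36, Rab17 and Rab42 lower and Rab37 higher. Of all genes it called 9.18% lower and 3.74% higher. The call of Rab42 rested on IQ3neg_1909B alone, and that of Rab37 on IQ3pos_1910A.

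The order of the libraries described the members further. Of the 49 tested members, 19 (38.8%) had both IQ3pos libraries above both IQ3neg ones and 6 (12.2%) had both below, close to the 40.9% and 14.2% of all genes. On TMM-scaled CPM, 8 members (16.3%) were higher in both and 14 (28.6%) lower, against 24.7% and 23% of all genes. Among all 59 members, low ones included, the counts on CPM were 21 higher, 9 lower and 29 overlapping. All rows of the table were not counted in this way. The counts of tested members were larger when a library was left out, since 1 library is more easily above or below a pair. Without IQ3pos_1909A 29 tested members were higher and 14 lower. Lower members numbered 10 without IQ3neg_1909B and 15 without IQ3pos_1910A. No share of all genes was counted with a library left out, so these counts cannot be called particular to Rab genes. The median difference of the tested members was 0.56, which is -0.12 relative to all genes, and 0.15 relative to all genes without IQ3pos_1909A.

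**Figure D1:**
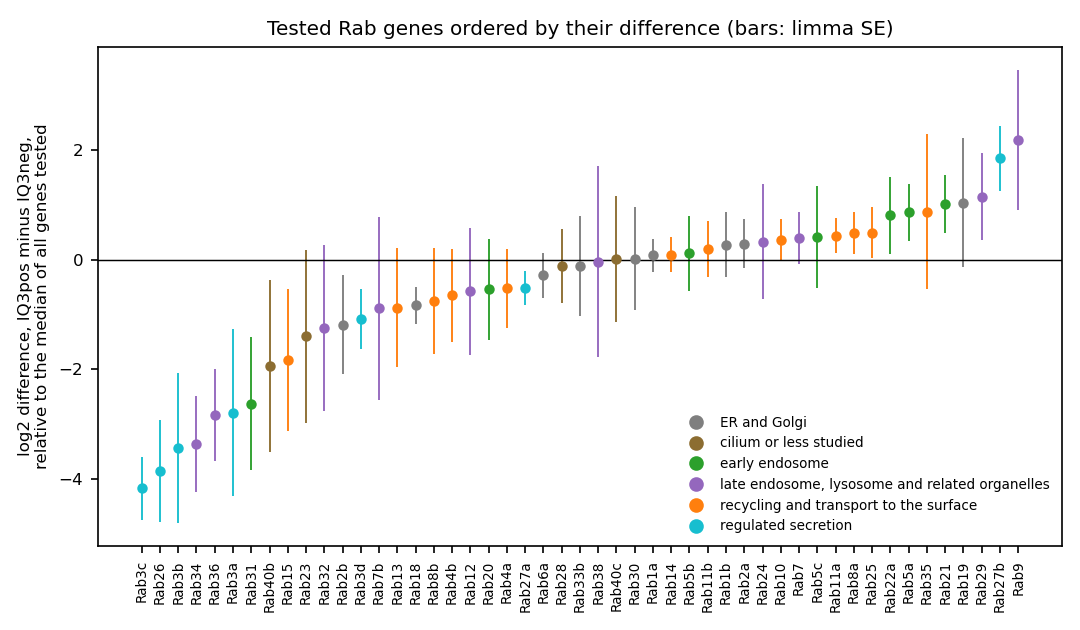
The 49 tested Rab genes by their log2(CPM + 1) difference, IQ3pos minus IQ3neg, relative to the median of all genes tested (vertical axis), with limma's SE as bars and colours for the members' roles. Genes of regulated secretion take 4 of the 6 lowest places, from Rab3c at -4.16 to Rab3a at -2.78, and Rab27b (1.84) and Rab9 (2.18) are the 2 highest.

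Regulated secretion was the role with the widest spread of differences. Of its 8 members 7 were tested. On CPM 1 of them stood higher and 3 lower in both IQ3pos libraries, where 40.9% and 14.2% of all genes did. On TMM-scaled CPM 1 stood higher and 6 lower, where 24.7% and 23% of all genes did. The median of the tested members was -2.78 relative to all genes. The summed level of the role was 927 and 817 CPM in IQ3pos and 489 and 648 CPM in IQ3neg, of which Rab27b alone held 568 and 515 CPM in IQ3pos. On TMM-scaled CPM the sums were 736 and 604 against 711 and 758 and overlapped, and the mean was the lower one in IQ3pos. In bulk libraries such as these, fewer cells of a type and less RNA per cell cannot be told apart.

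Rab3c, a Rab3 isoform of neuroendocrine granules (GRCm38 chr13:110054187-110280996, minus strand), showed the smallest p of the tested members. It stood at 12.0 and 6.52 CPM in IQ3pos and at 150 and 80.4 CPM in IQ3neg. Every IQ3neg library was above every IQ3pos library, by 12.5-fold between the 3-mouse libraries and 12.3-fold between the 4-mouse libraries. The log2 difference was -3.49 (SE 0.57, limma adjusted p = 0.0659), or -4.16 relative to all genes. DESeq2 gave an adjusted p of 0.00252.

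Rab26, which is known to gather granules in enzyme-secreting cells, was near the floor in IQ3pos. It had 4 and 5 reads there, 0.0441 and 0.0179 CPM, and 1250 and 2610 reads in IQ3neg, 10.9 and 6.24 CPM. The 95% Poisson limits of the IQ3pos levels reach 0.113 and 0.0418 CPM and cover counting error only. Both IQ3neg libraries were far above both IQ3pos libraries, and the mean CPM differed 276-fold. The log2(CPM + 1) difference, which understates changes of genes this low, was -3.17 (SE 0.93, limma adjusted p = 0.132), and DESeq2 gave an adjusted p of 5.47e-09. The exons of Rab26 share 267 bases on the same strand with Traf7, whose mean is 12.1 CPM, so that reads there cannot be assigned with certainty.

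Rab3d, the other zymogen granule member, differed much less. It stood at 26.5 and 34.3 CPM in IQ3pos and at 28.0 and 57.5 CPM in IQ3neg, so that the fractions overlapped on CPM. Its log2 difference was -0.40 (SE 0.54, limma adjusted p = 0.674), and -1.08 relative to all genes. On TMM-scaled CPM both IQ3pos libraries were below both IQ3neg libraries. Without IQ3neg_1910B the CPM difference changed sign to 0.10. Summed chief cell markers were lower in both IQ3pos libraries, and their part in the levels of Rab26 and Rab3d was not tested. Among those markers, Bhlha15, which encodes the transcription factor known to act on Rab26 and Rab3d in secretory cells, stood at 0.0882 and 0.0215 CPM in IQ3pos and at 3.48 and 5.15 CPM in IQ3neg.

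The other Rab3 isoforms did not repeat between IQ3pos libraries. Rab3a, the synaptic vesicle isoform, stood at 20.9 and 0.0430 CPM in IQ3pos and at 17.4 and 22.0 CPM in IQ3neg. Rab3b stood at 0.0441 and 13.8 CPM in IQ3pos and at 28.2 and 22.8 CPM in IQ3neg. Each was thus near absent in one IQ3pos library, and not in the same one. Rab3b was below both IQ3neg libraries in each IQ3pos library, and its log2 difference was -2.75 (SE 1.37, limma adjusted p = 0.294). Rab3a overlapped on CPM, with -2.11 (SE 1.52, limma adjusted p = 0.461), and without IQ3pos_1910A its difference was 0.088.

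Sums of endocrine and of neuronal markers, like Rab3c, were lower in both IQ3pos libraries. The 10 endocrine markers summed to 379 and 204 CPM in IQ3pos and to 16436 and 10874 CPM in IQ3neg. Among them Syp overlapped, at 6.72 and 1.24 CPM against 6.72 and 12.9, and so did Gast, which was at 0 in both 3-mouse libraries, while Scg2 was at 0 in IQ3pos_1909A. The 3 neuronal markers, which endocrine cells share in part, summed to 0.353 and 0.0717 CPM in IQ3pos and to 164 and 158 CPM in IQ3neg, nearly all of it Snap25. Elavl4 was at 0 in IQ3pos_1909A and Tubb3 in IQ3pos_1910A. The part of these markers in the levels of the Rab3 isoforms was not tested.

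Promoters are shown for 4 of the 9 members that were lower in both IQ3pos libraries on CPM, and for the granule member Rab3d, which overlapped. They were chosen after their values and windows had been seen, so differences between them are a description and were not tested. RefSeq promoters (GRCm38.p6, 250 bases before to 50 after the start) were matched for 48 of 59 members, with 60 promoters in all, and Rab26 was not among those matched. Capitals mark hexamers of the E-box class, the sites of basic helix-loop-helix factors such as Bhlha15. The palindrome CATATG was searched first. The hexamer CAGATG was searched on both strands, where its reverse complement is CATCTG. A further palindrome, CAGCTG, completed the search, and matches of these hexamers cannot overlap each other.
Rab3c, chr13:110280157-110280456, minus strand: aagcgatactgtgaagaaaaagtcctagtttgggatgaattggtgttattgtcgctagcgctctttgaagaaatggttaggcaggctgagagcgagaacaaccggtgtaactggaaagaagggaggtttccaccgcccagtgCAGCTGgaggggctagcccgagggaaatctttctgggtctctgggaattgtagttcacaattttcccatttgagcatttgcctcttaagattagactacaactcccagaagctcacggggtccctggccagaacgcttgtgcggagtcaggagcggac
Rab34, chr11:78188177-78188476, plus strand: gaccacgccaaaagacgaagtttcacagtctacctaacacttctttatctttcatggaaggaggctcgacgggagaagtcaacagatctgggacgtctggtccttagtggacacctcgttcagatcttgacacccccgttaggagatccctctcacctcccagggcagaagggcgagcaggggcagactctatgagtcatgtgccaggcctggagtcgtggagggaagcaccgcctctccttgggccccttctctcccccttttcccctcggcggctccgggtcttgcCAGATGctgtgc
Rab17, chr1:90967618-90967917, minus strand: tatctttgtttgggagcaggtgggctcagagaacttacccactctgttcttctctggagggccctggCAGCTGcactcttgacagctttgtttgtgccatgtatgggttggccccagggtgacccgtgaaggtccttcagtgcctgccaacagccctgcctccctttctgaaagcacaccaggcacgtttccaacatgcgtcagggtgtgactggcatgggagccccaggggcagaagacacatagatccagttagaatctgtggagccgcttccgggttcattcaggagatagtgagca
Rab3b, chr4:108878820-108879119, plus strand: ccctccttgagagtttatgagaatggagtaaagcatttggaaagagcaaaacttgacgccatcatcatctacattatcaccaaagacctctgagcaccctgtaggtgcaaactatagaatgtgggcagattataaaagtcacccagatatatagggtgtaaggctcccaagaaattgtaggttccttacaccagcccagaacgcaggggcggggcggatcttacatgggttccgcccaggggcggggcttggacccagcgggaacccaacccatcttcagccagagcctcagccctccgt
Rab3d, chr9:21918134-21918433, minus strand: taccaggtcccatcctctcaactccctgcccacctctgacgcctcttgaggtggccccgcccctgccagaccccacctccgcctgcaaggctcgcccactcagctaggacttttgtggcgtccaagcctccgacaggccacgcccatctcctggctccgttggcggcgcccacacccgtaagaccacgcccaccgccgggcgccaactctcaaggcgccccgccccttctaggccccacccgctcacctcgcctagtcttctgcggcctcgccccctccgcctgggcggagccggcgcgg
The windows of Rab3c and Rab17 held 1 CAGCTG each and that of Rab34, one of 2 for this gene, held 1 CAGATG, while those of Rab3b and Rab3d held none of these letters. Rab31 and Rab43 were the other lower members with a promoter, and a hexamer was in the window of Rab31 and in 1 of the 4 of Rab43. Lower members had a hexamer in 6 of 10 windows, and all Rab genes, these included, in 22 of 60 (36.7%). Only 6 of the 9 lower members had a promoter. Rab43 alone gave 4 windows and Rab34 2, and windows of the same gene are not independent. No enrichment is therefore read from these counts. CAGCTG was in 23.3% of the Rab promoters and in 16.3% of all 32851 promoters of this length, CAGATG in 13.3% and 17.2%, and CATATG in 1.67% and 3.91%. Rab promoters had a median of 19.5 CG pairs and a GC content of 61.2%, against 7 and 52.7% over all promoters. At 50.7% GC and 11 CG pairs, the Rab3c window was below the median of the family, and at 71.0% and 26 the Rab3d window was above it.

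**Figure D2:**
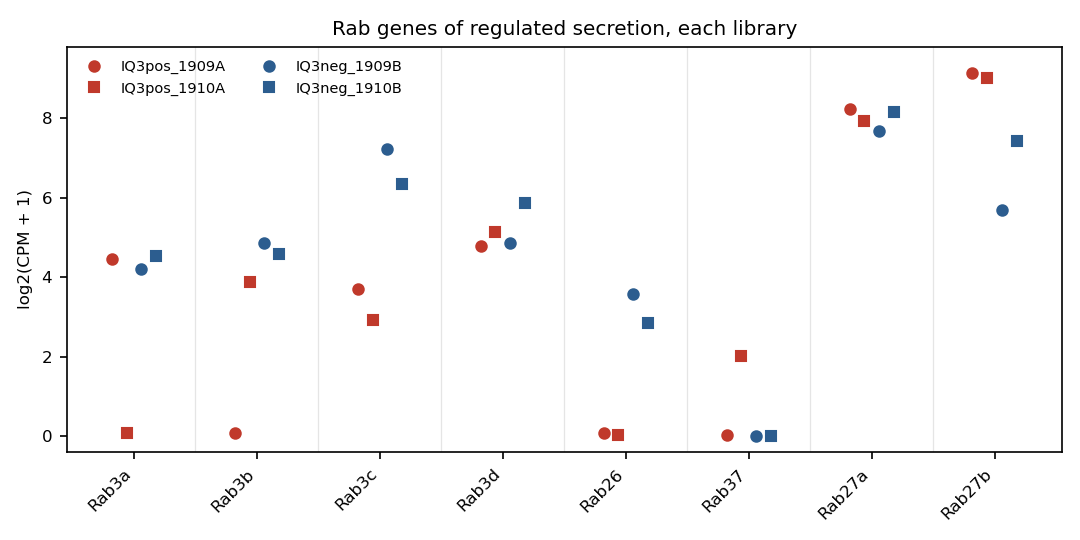
Level of the 8 Rab genes of regulated secretion in each library (vertical axis, log2(CPM + 1); red, IQ3pos; blue, IQ3neg; circles, pools of 3 mice; squares, pools of 4 mice). Rab3c and Rab26 are lower and Rab27b higher in both IQ3pos libraries, while Rab3a and Rab3b each have 1 IQ3pos library near 0.

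Rab27 genes, which dock granules at the surface through their effectors, went the other way from Rab3c or showed overlap. Rab27b stood at 568 and 515 CPM in IQ3pos and at 50.8 and 172 CPM in IQ3neg. Both IQ3pos libraries were higher, by 11.2-fold between the 3-mouse and 3.00-fold between the 4-mouse libraries. Its log2 difference was 2.52 (SE 0.58, limma adjusted p = 0.0910), and 1.84 relative to all genes. Rab27a stood at 300 and 245 CPM in IQ3pos and at 204 and 287 CPM in IQ3neg, and the fractions overlapped. The log2 difference of Rab27a was 0.16 (SE 0.31, limma adjusted p = 0.774) on CPM and -0.60 on TMM-scaled CPM, where both IQ3pos libraries were lower. Without IQ3neg_1909B it was -0.085 on CPM. Rab37, a granule Rab related to Rab26, had 2 and 848 reads in IQ3pos and 0 in both IQ3neg libraries. Its level, 0.0220 and 3.04 CPM against a floor of 0.0261 and 0.00717 CPM, thus rested on IQ3pos_1910A, also in the call that DESeq2 made (adjusted p = 0.0229).

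Shares within a subfamily do not depend on the rest of a library. Of Rab27 reads, Rab27b held 65.5% and 67.8% in IQ3pos and 19.96% and 37.4% in IQ3neg, a mean of 66.6% ± 1.64 against 28.7% ± 12.3 (SD, n = 2 each). Per kilobase of exon Rab27b held 40.8% and 43.3% in IQ3pos and 8.31% and 17.8% in IQ3neg, so that Rab27a led in every library on that scale. The exact 95% binomial intervals of the shares of reads, which cover counting error only, ran from 65.1% to 65.8% and from 67.6% to 68.0% in IQ3pos and from 19.5% to 20.4% and from 37.2% to 37.6% in IQ3neg. The shares of the fractions did not overlap, and the smallest two-sided p an exact permutation test of 2 against 2 can give is 0.333. Of Rab3 reads, Rab3c held 16.1% ± 5.84 in IQ3pos and 55.5% ± 16.3 in IQ3neg, and Rab3d held 53.7% ± 12.9 and 22.0% ± 13.4. Rab3c was thus the largest of the Rab3 genes by reads in each IQ3neg library, and Rab3d in each IQ3pos library. Per kilobase of exon the picture was less simple. Rab3a led in IQ3pos_1909A with 56.2% and Rab3d in IQ3pos_1910A with 64.7%, while Rab3c led in IQ3neg_1909B with 35.6% and Rab3d in IQ3neg_1910B with 37.3%. The shares of the Rab11 group lay close together in both fractions. Rab11a held 62.9% ± 1.78 of its reads in IQ3pos and 61.5% ± 6.40 in IQ3neg, and Rab25 held 18.9% ± 0.950 and 17.5% ± 1.37, differences of 1.46 and 1.40 points. Without IQ3neg_1910B the difference of Rab11a was -3.07 points. Of Rab26 and Rab37 reads together, Rab26 held all in both IQ3neg libraries, 4 of 6 reads in IQ3pos_1909A (exact 95% binomial interval 22.3% to 95.7%) and 0.586% in IQ3pos_1910A (0.191% to 1.36%).

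**Figure D3:**
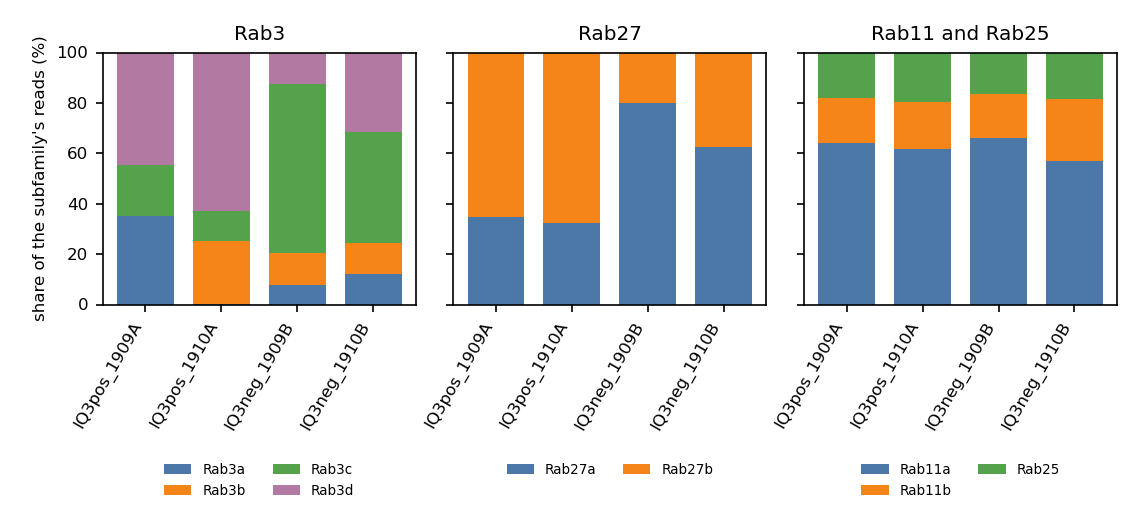
Share of each member in its subfamily's reads (vertical axis, percent) in the 4 libraries, for Rab3, Rab27 and Rab11 with Rab25. Rab27b takes 65.5% and 67.8% of Rab27 reads in IQ3pos against 19.96% and 37.4% in IQ3neg, and Rab11a takes between 56.9% and 66.0% of its group in every library.

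Recycling and transport to the surface was the role with the most tested members, 12 of 13. On CPM 6 stood higher in both IQ3pos libraries and none lower, where 40.9% and 14.2% of all genes did. On TMM-scaled CPM 2 were higher and 3 lower, where 24.7% and 23% of all genes were. The median of the tested members was 0.14 relative to all genes, so the group sat near the typical gene. Rab11a, which directs recycling endosomes and, in parietal cells, the tubulovesicles (GRCm38 chr9:64715299-64737758, minus strand), stood at 228 and 299 CPM in IQ3pos and at 107 and 136 CPM in IQ3neg. Both IQ3pos libraries were higher, by 2.14-fold between the 3-mouse and 2.19-fold between the 4-mouse libraries. The log2 difference was 1.11 (SE 0.32, limma adjusted p = 0.128), or 0.43 relative to all genes.

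Rab25, the epithelial member of the Rab11 group, stood at 64.8 and 94.8 CPM in IQ3pos and at 26.7 and 44.2 CPM in IQ3neg, and its log2 difference was 1.17 (SE 0.46, limma adjusted p = 0.211) and 0.49 relative to all genes. On TMM-scaled CPM its fractions overlapped, while Rab11a kept its order. Rab11b, the third member of that group, stood at 62.6 and 91.0 CPM against 28.3 and 58.8, with a log2 difference of 0.87 (limma adjusted p = 0.365). Its sign was the opposite, -0.10, when the 20 most abundant genes were left out of the total. The 6 parietal markers, led by the proton pump subunit Atp4b, summed to 4399 and 3314 CPM in IQ3pos and to 486 and 614 CPM in IQ3neg, with Slc26a7 at 0 in IQ3neg_1909B. All 3 genes of the Rab11 group differed by less than that sum did, and the part of parietal cells in their levels was not tested.

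Rab8a, a Rab of apical delivery, stood at 229 and 371 CPM in IQ3pos and at 105 and 159 CPM in IQ3neg. Its log2 difference was 1.16 (SE 0.39, limma adjusted p = 0.161), or 0.48 relative to all genes, and its fractions overlapped on TMM-scaled CPM. Rab10, a close relative of Rab8a in transport to the surface, stood at 73.4 and 72.0 CPM against 34.4 and 35.9, and it was one of 2 tested members of this role, with Rab11a, that stood higher in both IQ3pos libraries on TMM-scaled CPM as well. Rab14, which works between Golgi and endosomes, stood at 256 and 337 CPM against 148 and 201. Its log2 difference of 0.77 on CPM was 0.00 on TMM-scaled CPM, 0.09 relative to all genes on CPM and -0.22 without the 20 most abundant genes. Rab17, known from transport across polarised epithelial cells, was below the level for the test. It had 1 and 3 reads in IQ3pos and 146 and 676 in IQ3neg, that is 0.0110 and 0.0107 CPM against 1.27 and 1.62, and DESeq2 gave an adjusted p of 1.74e-06. The remaining members of the role (Rab4a, Rab4b, Rab8b, Rab13, Rab15 and Rab35) overlapped between fractions on CPM.

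The ER and Golgi role had 12 members and 9 tested ones, with a median of 0.02 relative to all genes. On CPM 5 stood higher in both IQ3pos libraries and none lower, where 40.9% and 14.2% of all genes did. On TMM-scaled CPM none stood higher and 2 lower, where 24.7% and 23% of all genes did. Rab1a, which acts between ER and Golgi, stood at 360 and 370 CPM in IQ3pos and at 179 and 261 CPM in IQ3neg, and the log2 difference was 0.75 (SE 0.30, limma adjusted p = 0.216) on CPM and -0.011 on TMM-scaled CPM. Rab2a stood at 117 and 250 CPM against 87.8 and 86.4. Rab18, a Rab of the ER and of lipid droplets, was one of the 2 members lower on TMM-scaled CPM, with 82.1 and 98.5 CPM against 96.3 and 105, and Rab2b, at -1.18 relative to all genes on CPM, was the other. Rab1b and Rab30 also stood higher in both IQ3pos libraries, and Rab6a and Rab33b overlapped. Rab6a shares 708 exon bases with Mrpl48 on the opposite strand (79.1 CPM), and without a known strand setting their reads cannot be told apart. Rab19, a less studied Golgi Rab, had the highest positive difference of the role, at 4.61 and 13.0 CPM against 0.313 and 4.54 (1.04 relative to all genes, SE 1.18, limma adjusted p = 0.444).

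All 7 early endosome members were tested. On CPM 4 stood higher in both IQ3pos libraries and 1 lower, where 40.9% and 14.2% of all genes did, and on TMM-scaled CPM 3 and 1, where 24.7% and 23% did. Their median was 0.41 relative to all genes. Rab5a, which drives fusion of early endosomes, stood at 68.7 and 104 CPM in IQ3pos and at 19.98 and 40.3 CPM in IQ3neg. Both IQ3pos libraries were higher, and its log2 difference was 1.54 (SE 0.51, limma adjusted p = 0.162), or 0.86 relative to all genes. Rab21, known from the uptake of integrins, stood at 40.4 and 37.7 CPM against 12.0 and 10.9. Its 3.37-fold difference between the 3-mouse libraries and 3.47-fold between the 4-mouse ones were close to each other. The log2 difference of Rab21 was 1.69 (SE 0.53, limma adjusted p = 0.146), or 1.01 relative to all genes. Rab5c, at 5.73 and 4.97 CPM against 2.02 and 1.94, kept its order on TMM-scaled CPM as well. Rab22a stood at 22.2 and 30.8 CPM against 13.2 and 5.65 and overlapped on TMM-scaled CPM. Rab5b and Rab20 overlapped on CPM. Rab31, a relative of Rab22a that works between Golgi and endosomes, was the member of this role that stood lower, at 0 and 4.51 CPM against 5.89 and 10.8 (log2 difference -1.94, SE 1.20, limma adjusted p = 0.394).

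Late endosome and lysosome members included the member of highest log2 difference, Rab9, and 2 members of low difference, Rab34 and Rab36. Of 13 members 10 were tested, with a median of -0.31 relative to all genes. On CPM 3 stood higher and 2 lower in both IQ3pos libraries, where 40.9% and 14.2% of all genes did. On TMM-scaled CPM 2 stood higher and 2 lower, where 24.7% and 23% of all genes did. Rab7 stood at 269 and 538 CPM in IQ3pos and at 133 and 243 CPM in IQ3neg. Its log2 difference was 1.08 (SE 0.47, limma adjusted p = 0.244), or 0.40 relative to all genes, and its fractions overlapped on TMM-scaled CPM. Rab9, which returns receptors from late endosomes to the Golgi, stood at 20.8 and 24.7 CPM against 0.0261 and 9.42. Its 2.85 (SE 1.28, limma adjusted p = 0.252) was the highest log2 difference of any member and rested in large part on IQ3neg_1909B, which had 3 reads of it. Rab29, a lysosome-linked Rab, stood at 19.5 and 68.7 CPM against 7.43 and 12.6 (log2 difference 1.82, SE 0.79, limma adjusted p = 0.241), or 1.14 relative to all genes. Rab7b, Rab12, Rab24, Rab32 and Rab38 overlapped on CPM, of which Rab24 shares 1258 exon bases with Prelid1 (36.9 CPM) on the opposite strand.

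Rab34 and its relative Rab36, which act at the Golgi in the positioning of lysosomes, were near absent in IQ3pos. Rab34 had 0 and 1 reads in IQ3pos and 684 and 2064 reads in IQ3neg, that is 0 and 0.00358 CPM against 5.95 and 4.93. Counting error allows IQ3pos levels of up to 0.0407 and 0.01996 CPM (95% Poisson). The log2(CPM + 1) difference of Rab34 was -2.68 (SE 0.87, limma adjusted p = 0.153), and DESeq2 gave an adjusted p of 8.75e-08. Rab36 had 10 and 2 reads in IQ3pos and 385 and 1706 in IQ3neg, 0.110 and 0.00717 CPM against 3.35 and 4.08 (log2 difference -2.15, SE 0.84, limma adjusted p = 0.204, DESeq2 adjusted p = 0.000869). Both genes thus had levels of a few CPM in each IQ3neg library and nearly none in either IQ3pos library, as Rab26 and Rab17 did.

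Among the cilium-linked and less studied members, 4 of 6 were tested and all 4 overlapped on either scale, with a median of -0.76 relative to all genes. Rab23, known as a brake on Hedgehog signalling, stood at 0.0882 and 17.4 CPM in IQ3pos and at 11.3 and 3.41 CPM in IQ3neg. Rab40b and Rab40c, members with a domain that links them to ubiquitin ligases, stood at 17.8 and 0.00717 CPM against 14.3 and 6.12 and at 8.25 and 0.845 against 1.67 and 1.46. Rab28 stood at 24.3 and 52.5 CPM against 15.3 and 37.2. Of the 10 members below the level for the test, Rab42 had 268 reads in IQ3neg_1909B and 0 in the other 3 libraries. Rab39b had 1130 reads in IQ3neg_1910B and at most 2 elsewhere, and Rab44 had 28 and 6 reads in IQ3pos against 116 and 954. Rab6b and Rab43 had at most 306 reads in any library, and Rab9b, Rab33a and Rab39 at most 8.

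Several members were present in one library of a fraction and nearly absent from the other. In IQ3pos, 9 of the 49 tested members (18.4%) stood under 0.1 CPM in one library and at 3 CPM or more in the other, against 14.7% of all tested genes. They were Rab3a, Rab3b, Rab7b, Rab15, Rab23, Rab31, Rab32, Rab38 and Rab40b. In IQ3neg, 3 members did so (6.12%, against 7.07% of all genes), namely Rab7b, Rab9 and Rab35. Members more than 4-fold apart between libraries of a fraction made up 28.6% in IQ3pos (25.7% of all genes) and 10.2% in IQ3neg (13.0% of all genes). The IQ3pos libraries thus differed more from each other than the IQ3neg libraries did, for Rab genes about as for all genes. In IQ3pos_1910A, the deeper of its fraction, the near-absent members Rab3a, Rab7b, Rab15 and Rab40b had only 12, 6, 6 and 2 reads, while IQ3pos_1909A had 1893, 672, 625 and 1616.

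**Figure D4:**
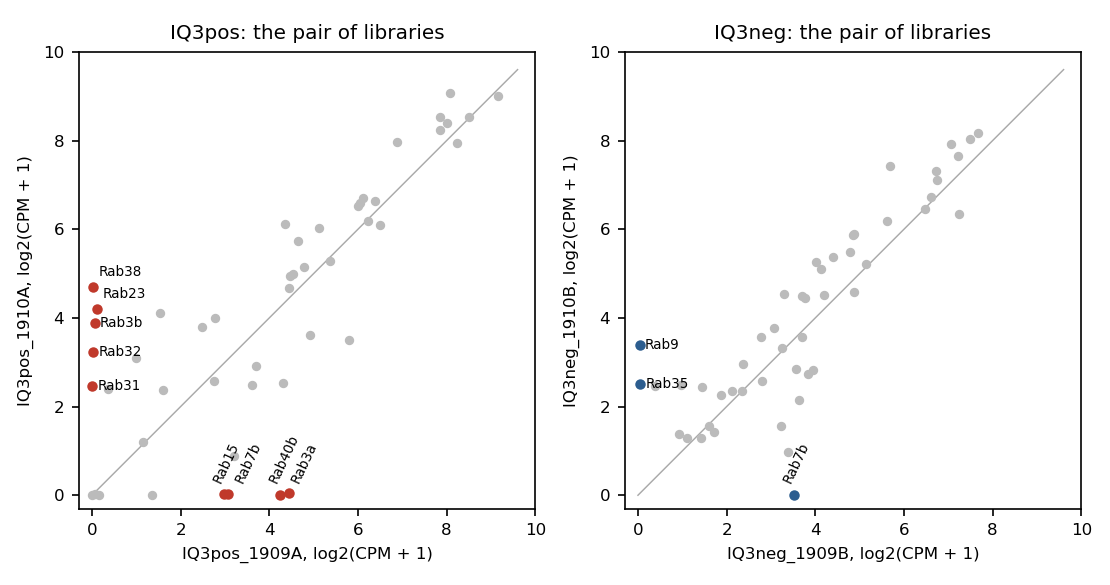
The 49 tested Rab genes in the pair of libraries of each fraction (both axes, log2(CPM + 1); grey line, equal levels). Coloured points are members under 0.1 CPM in one library and at 3 CPM or more in the other, 9 in IQ3pos and 3 in IQ3neg.

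Some members kept their side of the median of all genes under every setting that fitted them. How many of all genes did so was not counted, so this cannot be called particular to Rab genes. The settings rework the same 4 libraries and are not independent. Rab27b, Rab9, Rab29, Rab19, Rab21, Rab5a, Rab22a, Rab25, Rab8a, Rab11a and Rab10 were above the median of all genes under all 15 settings tried (scalings, pseudocounts, filters, tools and libraries left out), and Rab5c in the 14 that fitted it. Rab3a, Rab3b, Rab3c, Rab3d, Rab26, Rab34, Rab36, Rab31, Rab2b, Rab8b, Rab13, Rab15 and Rab18 were below it in every setting that fitted them. For Rab3c the relative difference ranged from -4.84 to -3.50, and for Rab27b from 1.10 to 2.50. Rab11a, from 0.11 to 1.09, and Rab10, from 0.03 to 1.01, came closer to the typical gene.

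Rab proteins depend on enzymes that attach their lipid anchor, on exchange factors that load GTP, on GTPase-activating proteins that end the signal and on effectors. Of 114 such genes listed, 113 are in the table and 96 were tested. None passed limma's test, on CPM or on TMM-scaled CPM, or edgeR's. DESeq2 called 1 higher in IQ3pos and 6 lower, where it called 415 and 1166 of the 13019 tested genes. Of all genes with a DESeq2 adjusted p it called 3.74% and 9.18%. The higher one was the exchange factor Rin1, at 0.0772 and 8.13 CPM in IQ3pos against 0 and 0.00956, so its call rested on IQ3pos_1910A. The 6 lower ones were Tbc1d8, Tbc1d16, Tbc1d24, Sgsm1, Rims2 and Rph3al. DESeq2 also called Dennd2a, Rin3, Sytl5 and Micall1 lower, which are below the level for limma's test. Of the 96 tested, 21 (21.9%) stood higher and 15 (15.6%) lower in both IQ3pos libraries on CPM, against 40.9% and 14.2% of all genes. On TMM-scaled CPM 10 (10.4%) stood higher and 28 (29.2%) lower, against 24.7% and 23% of all genes. The median of the 96 was -0.51 relative to all genes. The list was made with earlier results of these data known.

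The class listed for the lipid anchor and the recycling of Rab proteins, which also held Rabif, had 8 tested genes. Their median was -0.15 relative to all genes. On CPM 4 of them stood higher and none lower in both IQ3pos libraries. On TMM-scaled CPM 1 stood higher, which was Rabif, and 2 lower. Of all genes, 40.9% stood higher and 14.2% lower on CPM, and 24.7% and 23% on TMM-scaled CPM. Gdi2, which extracts Rab proteins from membranes, stood at 197 and 253 CPM in IQ3pos against 189 and 110. Of the exchange factors, 6 of the 26 tested stood higher and 4 lower on CPM. Ric1, which serves the Golgi Rab6, stood at 288 and 73.8 CPM against 162 and 99.7, and Rabgef1, which loads Rab5, at 55.0 and 55.2 against 12.8 and 27.6. GTPase-activating proteins had a median of -0.86 relative to all genes, with 4 of 30 higher and 7 lower on CPM, and none higher and 12 lower on TMM-scaled CPM. Their most abundant members, Tbc1d15 and Rabgap1l, stood at 165 and 192 CPM against 109 and 105, and at 113 and 91.6 against 43.5 and 72.9.

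Effectors of Rab3 and Rab27 stood apart in both directions. Rph3al (Noc2), an effector in endocrine granules, stood at 0.0331 and 0.107 CPM in IQ3pos and at 5.59 and 13.3 CPM in IQ3neg (log2 difference -3.18, SE 0.97, limma adjusted p = 0.139). Rims2, a Rab3 effector at release sites, stood at 1.72 and 2.03 CPM against 27.6 and 6.998, and Sytl4 (granuphilin) at 0 and 3.21 against 7.65 and 7.44. Sytl2, a Rab27 effector at the apical membrane, stood at 66.6 and 55.9 CPM in IQ3pos against 0.313 and 17.4 in IQ3neg, and its log2 difference was 3.66 (SE 1.28, limma adjusted p = 0.176). Of the 7 tested effectors of this class, 1 stood higher and 3 lower in both IQ3pos libraries on either scale. Of all genes, 40.9% stood higher and 14.2% lower on CPM, and 24.7% and 23% on TMM-scaled CPM. The effectors given here were chosen for the size of their difference, so their values are a description.

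Of the 9 tested effectors of Rab11, 1 stood higher and none lower on CPM, and none higher and 2 lower on TMM-scaled CPM. Of all genes, 40.9% stood higher and 14.2% lower on CPM, and 24.7% and 23% on TMM-scaled CPM. Rab11fip1, the effector of Rab11 that stood higher, was at 21.7 and 21.5 CPM against 6.56 and 17.5. Rab11fip2 was at 0.0441 and 6.61 against 0 and 0.0621. Myo5b, the motor that binds Rab11a, stood at 0.0992 and 7.76 CPM against 5.59 and 22.5, and Myo5a at 23.7 and 11.5 against 11.7 and 1.22. Zfyve27 and Myo5c, the most abundant of the class, overlapped between fractions. Among effectors of Rab5, Rab7 and other members, 5 of 16 stood higher and 1 lower on CPM, with a median of 0.30 relative to all genes. The Rab5 effector Rabep1 stood at 108 and 69.8 CPM against 31.1 and 31.4, and the Golgi tether Gcc2 at 93.6 and 135 against 46.7 and 50.3.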

How the data were processed

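Bulk RNA of 4 libraries was deposited as CPM per gene symbol, and the deposited CPM columns each sum to 1000000, so the authors applied no composition factor to them. Per the submitters' processing notes, the tools included STAR (2.7.1a), Subread (2.0.0) with featureCounts, and edgeR, and the build was GRCm38 or mm10. How reads were counted by strand, with which annotation, and what became of multi-mapped reads is not given in the sources used here. Since 100% of values came out within 0.05 of a whole read, reads were recovered from the CPM.

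Limma-trend (limma 3.58.1, R 4.3.3) was fitted on log2(CPM + 1), pseudocount 1, for the 13019 genes averaging 1 CPM or more, without a block, two-sided, with Benjamini-Hochberg adjustment at 0.05. Limma had 2 residual and 3.61 prior degrees of freedom. The scripts were tested on simulated data. Results were recomputed with different scalings, filters and pseudocounts, without each library in turn, with a block for the library number, and with edgeR 4.0.16 (quasi-likelihood) and DESeq2 1.42.0 on the recovered reads. Exon lengths are the union of exons in GENCODE vM21, and reads in exons of overlapping genes could not be separated.

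Members and lists were chosen with earlier results of these data known. Values per library are given for Rab3a to Rab3d, Rab26, Rab11a and Rab25, for their nearest relatives, for the 6 members of highest mean CPM and for those of largest difference relative to all genes with both libraries of one fraction above both of the other, 8 in each direction where there were as many. Of the regulators, the 2 of highest mean CPM in a class are given, and the 4 effectors of Rab3, Rab27 and Rab11 that differ most in each direction. One gene taken by these rules is left out of the text. Any other gene named was chosen after its values were seen.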

Additional observations from a re-analysis of the deposited data

How the results depend on the processing

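Of the 23 named members that were tested, 17 kept the sign of their log2 difference under every one of the 14 alternatives that fitted them. Calls depended on the tool and the filter. With a mean of at least 5 CPM 1 member passed in each direction, Rab27b (adjusted p = 0.0443) and Rab3c (0.0307), with 689 and 93 of all 8805 genes (7.83% and 1.06%), and DESeq2 called 1 member higher, 6 lower and 11 regulators (3.74% and 9.18% of all genes higher and lower). The titles number 1 library of each fraction alike (IQ3pos_1909A with IQ3neg_1909B, IQ3pos_1910A with IQ3neg_1910B), but no label says that such libraries share mice. With a replicate block for that number 4 members were called higher and 1 lower, namely Rab27b (adjusted p = 0.0171), Rab8a (0.0335), Rab7 (0.0340), Rab11a (0.0411) and Rab3c (0.0096), and 1216 and 125 of all 13019 genes (9.34% and 0.960%) were. The deviations of same-numbered libraries from their fraction's mean correlated at r = 0.148 over 13019 genes, which are not independent.

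Members higher in both IQ3pos libraries numbered 19 on CPM, 8 with TMM, 9 with DESeq2's size factors, 4 without the 20 most abundant genes and 22 to 29 with a library left out. Those lower in both numbered 6, then 14, 14 and 19, 3 with a mean of at least 5 CPM and 8 to 15 with a library left out. The shares of all genes were 40.9% higher and 14.2% lower on CPM, and 24.7% and 23% with TMM. Under the other settings all genes were not counted by order, so those counts cannot be called particular to Rab genes. The median of the tested members relative to all genes, -0.12, was 0.13 with no filter, -0.49 with DESeq2 and from -0.30 to 0.15 with a library left out. Signs turned for Rab27a (-0.60 with TMM and with DESeq2's size factors, -0.83 without the 20 most abundant genes, -0.65 with edgeR, -0.64 with DESeq2, -0.085 to 0.41 with a library left out) and for Rab1a (-0.011, -0.012, -0.23, -0.071 and -0.053 in the same order of settings). They turned for Rab14 (-0.22 without the 20 most abundant genes, -0.044 with edgeR, -0.019 with DESeq2), for Rab11b (-0.10 without those genes) and, with a library left out, for Rab3a (-4.30 to 0.088) and Rab3d (-0.91 to 0.10). The share of Rab3c in Rab3, 39.5 points lower in IQ3pos, had a difference of -21.8 points per kilobase of exon. That of Rab11a, 1.46 points, was -0.031 per kilobase and from -3.07 to 5.98 points with a library left out. The cause of these changes was not tested.

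Counting error is wide for members with fewer than 10 reads in a library. As SMART-Seq2 reads carry no molecular identifiers, Poisson limits do not cover transcripts that were lost before PCR. With 2 libraries per fraction, no exact test of a single value can pass a threshold of 0.05.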
